A study of Mus musculus with 35 samples.

Results

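The genes described here make steroid hormones in the gonads or receive the pituitary signals that drive that synthesis. They are *Star*, *Cyp11a1*, *Hsd3b1*, *Cyp17a1*, *Cyp19a1*, *Hsd17b1*, *Hsd17b3*, *Insl3*, *Lhcgr* and *Fshr*, 10 genes listed by symbol among 55356 counted loci. The list rests on function and not on a threshold, but it was drawn up with earlier results of these data known. RNA-seq libraries were prepared after depletion of ribosomal RNA from adult C57BL/6J mice of both sexes, with no treatment or engineered allele in any group. The 29 libraries comprised 3 of ovary (the female gonad) and 3 of testis (the male gonad), and 3 per sex of brain, cerebellum, heart and colon except for 2 of male heart. Each library was of whole tissue, so that fewer cells of a type and less RNA per cell cannot be told apart. The labels do not state that the libraries of a group came from separate animals, and P values measure the spread between these libraries, which may be technical.

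Steroid synthesis begins when StAR moves cholesterol into mitochondria, where CYP11A1 cleaves its side chain to give pregnenolone. HSD3B1 and CYP17A1 carry the product on to progesterone and to androgens. In the testis, Leydig cells finish testosterone with HSD17B3 and also secrete the peptide INSL3, which acts in testicular descent. In the ovary, theca cells supply androgens that granulosa cells turn into estrogens with HSD17B1 and the aromatase CYP19A1, and the corpus luteum makes progesterone after ovulation. Luteinizing hormone acts through LHCGR and follicle-stimulating hormone through FSHR, the latter on granulosa cells and on Sertoli cells.

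Of the 10 genes, 7 were counted under loci of the full-length cDNA (Iso-seq) annotation made in the study on GRCm38.p6 and 3 under ENSEMBL genes. *Star* lies at chr8:25808501-25815982 on the plus strand and had 12 Iso-seq transcripts. Its locus shared 675 exon bases with *Ash2l* on the opposite strand, and the sources used here do not state whether reads were assigned by strand. *Cyp11a1* (chr9:58014997-58027022, plus strand) had 9 transcripts, *Hsd3b1* (chr3:98852195-98859791, minus strand) had 8 and *Cyp17a1* (chr19:46667183-46672893, minus strand) had 3. *Hsd17b1* (chr11:101078376-101080518, plus strand) and *Lhcgr* (chr17:88749998-88791990, minus strand) had 1 each. The *Lhcgr* transcript covered 45.7% of the coding bases that GENCODE gives the gene and 12.8% of its exon bases, so reads from the rest of that gene did not enter its count. The *Cyp11a1* and *Cyp17a1* loci covered 37.3% and 62.0% of the GENCODE exon bases, and 93.5% and 92.4% of the coding bases. *Cyp19a1* (chr9:54165937-54268110), *Hsd17b3* (chr13:64058266-64089230) and *Fshr* (chr17:88984952-89200675), all on the minus strand, were counted on their ENSEMBL exons.

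*Insl3* was counted together with the kinase gene *Jak3*. The locus (chr8:71676265-71690574, plus strand) held 3 Iso-seq transcripts, namely a *Jak3* transcript of 3793 bases, a transcript of 3770 bases that ran from *Jak3* into *Insl3*, and an *Insl3* transcript of 584 bases in 2 exons that starts at position 71689252. It also shared 134 exon bases with *B3gnt3* on the opposite strand. Reads of *Insl3* and *Jak3* cannot be told apart in this count, and the value is called the *Insl3*/*Jak3* locus below. *Hsd3b1* has close relatives in the genome, among them *Hsd3b6* at chr3:98805505-98814443. Only uniquely mapped reads were kept, so reads that fit several of these genes were lost and the level of *Hsd3b1* is uncertain to that extent.

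RefSeq starts on GRCm38.p6 were found for 7 of the 10 genes, with 10 starts in all, and not for *Star*, *Cyp17a1* and *Hsd17b1*. The 250 bases before each start were searched on both strands for CAAGGNC (the letters bound by NR5A1, the steroidogenic factor of gonads and adrenal), TGACG (the core of the cAMP response element) and the TATA box letters TATAA. The sequences are shown for the genes with an entry that differed most between the gonads in each direction, *Insl3* and *Hsd17b3* with the higher level in testis and *Hsd3b1* and *Fshr* with the higher level in ovary. *Cyp11a1* is not shown because the window next to its counted locus is exon in GENCODE, and annotated exon bases at the near end were left out of the *Insl3* and *Hsd17b3* windows. Each is written 5′ to 3′ toward the start, with capitals for CAAGGNC.
*Insl3*, chr8:71689002-71689213 (plus strand): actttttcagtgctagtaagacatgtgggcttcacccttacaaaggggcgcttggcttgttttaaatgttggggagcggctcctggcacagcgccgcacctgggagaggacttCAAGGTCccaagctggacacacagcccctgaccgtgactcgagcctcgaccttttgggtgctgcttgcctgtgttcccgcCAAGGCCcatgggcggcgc
*Hsd17b3*, chr13:64089231-64089451 (minus strand): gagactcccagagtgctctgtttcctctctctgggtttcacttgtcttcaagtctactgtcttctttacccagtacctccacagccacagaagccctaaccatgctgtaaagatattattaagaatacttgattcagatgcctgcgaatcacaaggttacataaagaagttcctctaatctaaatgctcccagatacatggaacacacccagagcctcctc
*Hsd3b1*, chr3:98859795-98860044 (minus strand): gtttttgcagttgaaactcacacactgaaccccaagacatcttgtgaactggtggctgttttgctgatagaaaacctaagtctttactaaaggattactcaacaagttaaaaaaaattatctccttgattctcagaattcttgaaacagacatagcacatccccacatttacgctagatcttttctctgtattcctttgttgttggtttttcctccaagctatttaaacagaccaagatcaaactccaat
*Fshr*, chr17:89200676-89200925 (minus strand): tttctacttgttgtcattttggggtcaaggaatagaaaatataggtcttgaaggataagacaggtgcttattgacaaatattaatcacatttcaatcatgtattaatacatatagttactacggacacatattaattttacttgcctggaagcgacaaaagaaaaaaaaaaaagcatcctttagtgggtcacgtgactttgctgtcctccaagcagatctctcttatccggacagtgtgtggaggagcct
The *Insl3* window held CAAGGNC 2 times, 137 to 131 and 57 to 51 bases before the start, and TATAA 2 times on overlapping letters, 31 to 26 bases before it, in the stretch left out above. This window lies inside the *Jak3* gene. The most distal of the 3 *Cyp19a1* starts had 1 match of CAAGGNC, and 2 of the 7 genes had any. In all 32851 windows of the table, 15% held CAAGGNC, 17.8% held TGACG and 22.8% held TATAA. The letters TGACG were found before 1 of the *Cyp11a1* starts, and TATAA before *Insl3* and before 2 of the *Cyp19a1* starts. These matches describe letters in the windows and do not show binding.

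Total counts ranged from 11742417 to 36194255 per library, from 18035978 to 28081608 in ovary and from 28459258 to 30925443 in testis. Levels are given as FPKM, the count scaled by the library's total and by the length of the locus's exons. Tests used 1 quasi-likelihood fit (edgeR) over all libraries, and adjusted P values are Benjamini-Hochberg over the 29911 loci tested. An SE given with this fit is the absolute log2 difference divided by the square root of the F statistic of its test. All 10 members passed the low-count filter. TMM, the scaling used in that fit, multiplied the library totals by 1.30 to 1.45 in ovary and by 0.855 to 0.873 in testis, so log2 differences from the fit lie below those of FPKM. The median log2 difference of all loci between ovary and testis was -0.15 with TMM, 0.38 with library totals and -0.32 with DESeq2's size factors in edgeR. The brain, cerebellum, heart and colon marker lists were highest in libraries of their own tissue. The Leydig list, which holds the members *Cyp11a1* and *Cyp17a1*, summed to between 770 and 1091 FPKM in testis and between 1244 and 2244 FPKM in ovary. The Sertoli list summed to between 33.5 and 36.6 FPKM in testis, 51.3 and 88.0 FPKM in brain and 75.1 and 108 FPKM in cerebellum. These lists therefore do not mark testis alone. The post-meiotic male germ cell list summed to between 20032 and 24157 FPKM in testis and at most 1.13 FPKM in ovary, and the corpus luteum list to between 220 and 279 FPKM in ovary and at most 0.0683 FPKM in testis.

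Each of the 10 members differed between ovary and testis, 6 of them higher in ovary and 4 higher in testis. Over all loci tested, 26.5% were higher in ovary and 37.8% higher in testis, and with library totals alone these counts of 7919 and 11313 loci became 11520 and 9083. Differences were therefore widespread between these tissues, and the libraries of 9 of the 10 members did not overlap against 74.4% of all loci. The median log2 difference of the members was 1.47.

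The first steps of the pathway differed in size between the gonads. *Star*, the cholesterol carrier, was at 74.5, 36.5 and 57.1 FPKM in ovary replicates 1, 2 and 3 and at 68.2, 55.3 and 79.4 FPKM in the testis replicates. These ranges overlapped, with means of 56.0 ± 19.0 FPKM in ovary and 67.6 ± 12.1 FPKM in testis (SD, n = 3 each). With the length of the longest transcript in place of all exons the means became 88.1 and 106 FPKM. In the fit *Star* was lower in ovary by a log2 difference of -0.93 (SE 0.24, adjusted P = 0.0017, edgeR), and with library totals the value was -0.27 (adjusted P = 0.48). Set against the median of all loci under the same scaling, it was -0.78 with TMM and -0.65 with library totals.

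*Cyp11a1*, the side-chain cleavage enzyme, was at 1048, 1755 and 1957 FPKM in ovary. Testis libraries were at 219, 210 and 321 FPKM, all below the lowest ovary library, and the mean was 6.35-fold higher in ovary. The log2 difference in the fit was 2.04 (SE 0.32, adjusted P = 4.1e-06). *Hsd3b1*, which makes progesterone from pregnenolone, was at 840, 873 and 993 FPKM in ovary. It was at 95.2, 67.5 and 85.7 FPKM in testis, and the mean was 10.9-fold higher in ovary (log2 difference 2.81, SE 0.25, adjusted P = 1.5e-09). The order of *Cyp11a1* and *Hsd3b1* in ovary depends on the length used for *Hsd3b1*. Its counts of 69818, 100092 and 128459 exceeded those of *Cyp11a1* (33886, 78334 and 98512) in every ovary library and were divided by 4606 exon bases, against 1793 for *Cyp11a1*, because 1 of its 8 transcripts has 4238 bases. With the 1855 exon bases that GENCODE gives *Hsd3b1*, an alternative added after the data were seen, it was at 2087, 2168 and 2466 FPKM in ovary, above *Cyp11a1* in each library, and had a mean of 206 FPKM in testis. The values of *Hsd3b1* in ovary were the closest among replicates of all members there, with an SD of 8.92% of the mean.

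The androgen-forming steps went the other way. *Cyp17a1*, which cuts progestins to androgens, was at 160, 103 and 233 FPKM in ovary and at 344, 387 and 465 FPKM in testis. No ovary library reached the lowest testis library, and the log2 difference was -1.91 (SE 0.37, adjusted P = 9.7e-05). *Hsd17b3*, which reduces androstenedione to testosterone, was at 54.4, 47.5 and 64.6 FPKM in testis. In ovary it was at 5.38, 0.635 and 1.41 FPKM, resting on 135, 22 and 55 counts. The difference was -5.21 on the log2 scale (SE 0.59, adjusted P = 2.2e-06). Without ovary replicate 1 it was -6.33, and with DESeq2 the adjusted P was 0.093.

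The estrogen-forming enzymes were higher in ovary. *Hsd17b1*, which reduces estrone to estradiol, was at 37.2, 57.6 and 44.4 FPKM in ovary and at 0.592, 0.592 and 0.476 FPKM in testis, where 20 to 25 reads were counted per library. Every ovary library lay far above every testis library (log2 difference 5.75, SE 0.55, adjusted P = 1.7e-09), and the mean was 83.9-fold higher. *Cyp19a1*, the aromatase, was low in both gonads, at 2.94, 6.29 and 2.01 FPKM in ovary and at 0.909, 0.894 and 0.719 FPKM in testis. With the length of the longest transcript the means of 3.75 and 0.841 FPKM became 6.91 and 1.55 FPKM. The libraries did not overlap, and the log2 difference was 1.53 (SE 0.46, adjusted P = 0.0091). It rested on ovary replicate 2, without which it was 0.88 (adjusted P = 0.11).

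The *Insl3*/*Jak3* locus had the largest difference of the list. It was at 179, 206 and 268 FPKM in testis, from 22331 to 36114 counts per library, and at 1.25, 2.82 and 3.04 FPKM in ovary, from 99 to 374 counts. The log2 difference was -7.13 (SE 0.35, adjusted P = 5.1e-15). The ovary range overlapped those of colon and heart, with replicate 1 inside them and replicates 2 and 3 above the highest library of either, and since *Jak3* reads enter the count it gives no separate level of *Insl3* in ovary. With the length of the *Insl3* transcript alone, an alternative added after the data were seen, the testis mean of 218 FPKM became 1633 FPKM.

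Both gonadotropin receptors were higher in ovary. *Lhcgr*, the receptor of luteinizing hormone, was at 55.0, 87.4 and 84.6 FPKM in ovary and at 18.0, 16.1 and 21.3 FPKM in testis (log2 difference 1.41, SE 0.31, adjusted P = 0.00038). *Fshr*, the receptor of follicle-stimulating hormone, was at 2.04, 5.84 and 3.59 FPKM in ovary and at 0.700, 0.712 and 0.703 FPKM in testis, from 47 to 52 counts. Neither receptor overlapped between the gonads. The *Fshr* difference of 1.82 (SE 0.60, adjusted P = 0.018) rested on few counts. Its adjusted P was 0.098 without ovary replicate 2, from 0.056 to 0.059 without any 1 of the testis replicates and 0.84 with DESeq2.

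**Figure D1:**
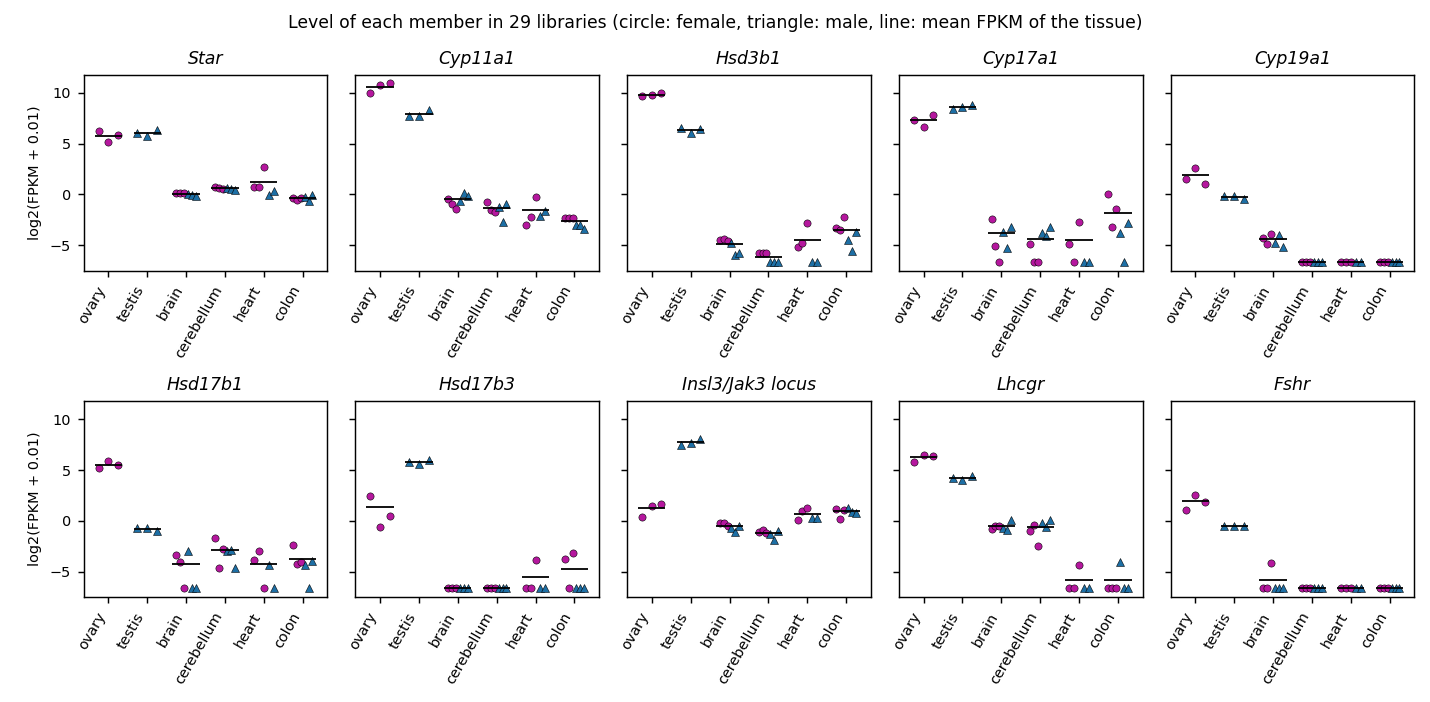
Level of each member in the 29 libraries, as log2(FPKM + 0.01) on the vertical axis by tissue on the horizontal axis, with circles for female libraries, triangles for male libraries and a line at the mean FPKM of the tissue. *Cyp11a1* reached 1048 to 1957 FPKM in ovary, while *Fshr* had counts outside the gonads in 1 brain library.

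**Figure D2:**
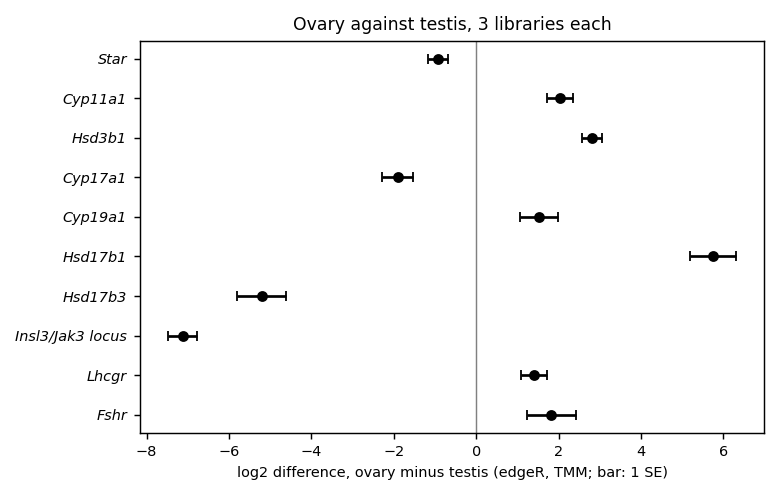
Log2 difference between ovary and testis for each member from the edgeR fit with TMM scaling, with 3 libraries in each gonad. Bars are 1 SE, derived from the F statistic of the test. *Hsd17b1* lies at 5.75 on the ovary side and the *Insl3*/*Jak3* locus at -7.13 on the testis side.

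Within a library, the share that each member takes of the summed level of the list does not depend on library scaling. The summed FPKM of the 10 members was 2227, 2928 and 3379 in the ovary libraries and 980, 991 and 1307 in the testis libraries. The testis sums rest on the length of the *Insl3*/*Jak3* locus, and with that of the *Insl3* transcript alone they became 2144, 2330 and 3049, which overlapped the ovary sums of 2235, 2946 and 3398. With the GENCODE length of *Hsd3b1* alone the sums were 3473, 4223 and 4852 in ovary and 1121, 1091 and 1434 in testis, which did not overlap. In ovary, *Cyp11a1* took 55.0% ± 6.93 (SD, n = 3) of that sum and *Hsd3b1* took 32.3% ± 4.70, followed by *Cyp17a1* with 5.87% ± 2.04. In testis, *Cyp17a1* came first with 36.5% ± 2.14, followed by *Cyp11a1* with 22.7% ± 1.71 and the *Insl3*/*Jak3* locus with 19.9% ± 1.38. With the GENCODE length of *Hsd3b1* the order in ovary turned, to 54.1% for *Hsd3b1* and 37.4% for *Cyp11a1*. The testis share of *Cyp17a1* was 32.8% with that length and 33.9% when the longest transcript set the length. With the length of the *Insl3* transcript alone the order in testis turned, to 65.0% for the *Insl3*/*Jak3* locus and 16.0% for *Cyp17a1*. *Star* took 2.09% ± 1.11 in ovary and 6.20% ± 0.701 in testis, and these shares did not overlap, while with the length of the *Insl3* transcript alone they were 2.08% and 2.72% and overlapped. *Lhcgr* took 2.65% in ovary and 1.70% in testis, while *Cyp19a1* and *Fshr* each took at most 0.215% in every gonad library.

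**Figure D3:**
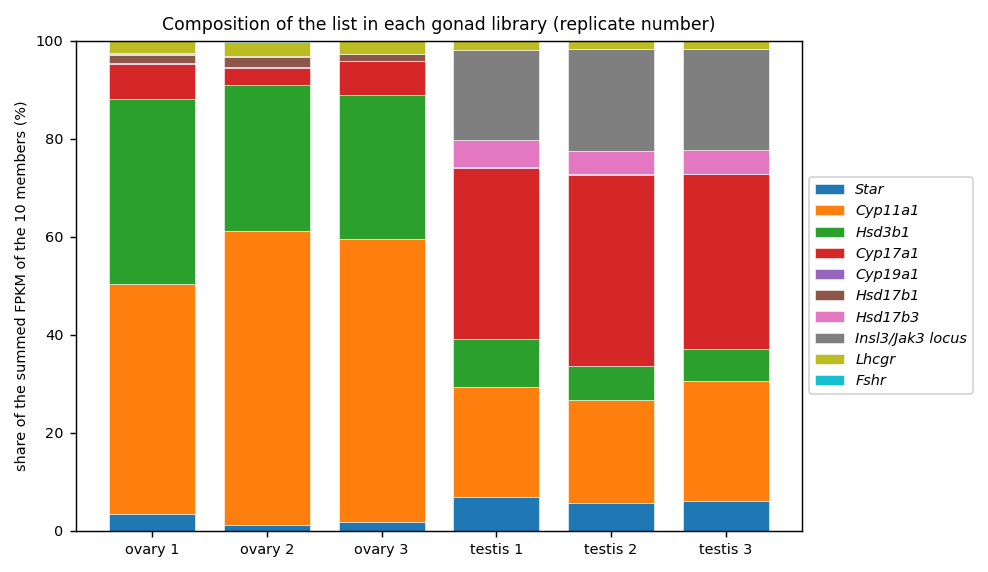
Share of each member in the summed FPKM of the 10 members, in percent, with levels per length of the union of exons, stacked for each of the 3 ovary and 3 testis libraries. *Cyp11a1* and *Hsd3b1* fill most of each ovary bar, and *Cyp17a1*, *Cyp11a1* and the *Insl3*/*Jak3* locus most of each testis bar.

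Ratios of chosen pairs of members were compared between the gonads over the 6 libraries. The tests were two-sided exact permutation tests, in which 0.1 is the smallest P possible. There were 4 ratios, and a P of 0.1 became 0.13 after Benjamini-Hochberg adjustment. The log2 ratio of *Hsd17b1* to *Hsd17b3*, the enzymes that finish estradiol and testosterone, was 2.79, 6.50 and 4.98 in ovary and -6.52, -6.32 and -7.08 in testis. The means were 11.40 apart (exact P = 0.1). The log2 ratio of *Cyp19a1* to *Cyp17a1*, aromatase to the androgen-forming enzyme, was -5.77, -4.03 and -6.86 in ovary and -8.56, -8.76 and -9.34 in testis. It was 3.33 higher in ovary (exact P = 0.1), 2.57 without ovary replicate 2 and 3.98 without ovary replicate 3. The log2 ratio of *Cyp17a1* to *Star* differed by -1.02 between ovary and testis (exact P = 0.1), and the values of the gonads did not overlap. Leaving out each library in turn gave differences of 10.53 to 12.39 for *Hsd17b1* to *Hsd17b3*. *Fshr* to *Lhcgr* differed by 0.30, less than the spread between ovary libraries (exact P = 0.5).

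The ovary libraries differed among themselves more than the testis libraries for 9 of the 10 members, by the SD relative to the mean. *Hsd17b3* had the widest spread, with 8.47-fold between replicates 1 and 2, followed by *Cyp19a1* with 3.13-fold and *Fshr* with 2.86-fold. In testis no member varied by more than 1.53-fold. *Cyp19a1*, *Fshr*, *Hsd17b1* and *Lhcgr* were highest in ovary replicate 2, *Star* and *Hsd17b3* in replicate 1, and *Cyp11a1*, *Hsd3b1*, *Cyp17a1* and the *Insl3*/*Jak3* locus in replicate 3.

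The sums of the cell type marker lists also differed between these replicates, and not in a common order. The granulosa list (*Foxl2*, *Amh* and *Inha*, all with counts) summed to 110, 191 and 150 FPKM in ovary replicates 1, 2 and 3, and was highest where *Cyp19a1* and *Fshr* were. *Amh*, a granulosa hormone, was at 4.04, 20.2 and 12.2 FPKM. The corpus luteum list (*Akr1c18*, *Ptgfr* and *Sfrp4*) summed to 279, 220 and 228 FPKM, with *Akr1c18*, which inactivates progesterone, at 223, 124 and 95.9 FPKM. *Ptgfr* (14.3 to 22.0 FPKM) and *Sfrp4* (42.0 to 111 FPKM) went the other way, both lowest in replicate 1 and highest in replicate 3. The adrenal cortex list summed to 0.0515, 0.210 and 1.06 FPKM, with 3 of its 4 genes counted in ovary, and *Cyp11b1*, an adrenal enzyme, had 1, 3 and 37 counts. The fat list, all 4 genes with counts, summed to 12.2, 118 and 82.3 FPKM, and the oviduct and uterus list to between 1.82 and 2.52 FPKM. The oocyte list, all 6 genes with counts, summed to 28.6, 60.1 and 54.0 FPKM. The locus counted for *Gdf9*, at a mean of 32.5 FPKM, made up most of it. That locus was also at 34.3 FPKM in testis and from 26.4 to 176 FPKM on average in the somatic tissues. Whether it also counts reads of another gene was not examined. This sum therefore does not measure oocytes alone. The red blood cell list, all 4 with counts, summed to 313, 201 and 103 FPKM. In testis, the epididymis list summed to 37.8, 2.21 and 0.410 FPKM in replicates 1, 2 and 3. In replicate 1 this sum was *Crisp1*, a secreted protein gene of the epididymis, alone, with 1525 counts against 93 and 4, while the other 3 genes of the list had 0 counts there and at most 6 in any testis library. Without replicate 1 9 of the 10 members were called between ovary and testis, all but *Fshr*. The part of these markers in the spread of the members was not tested. The stage of the cycle is not given in the labels.

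**Figure D4:**
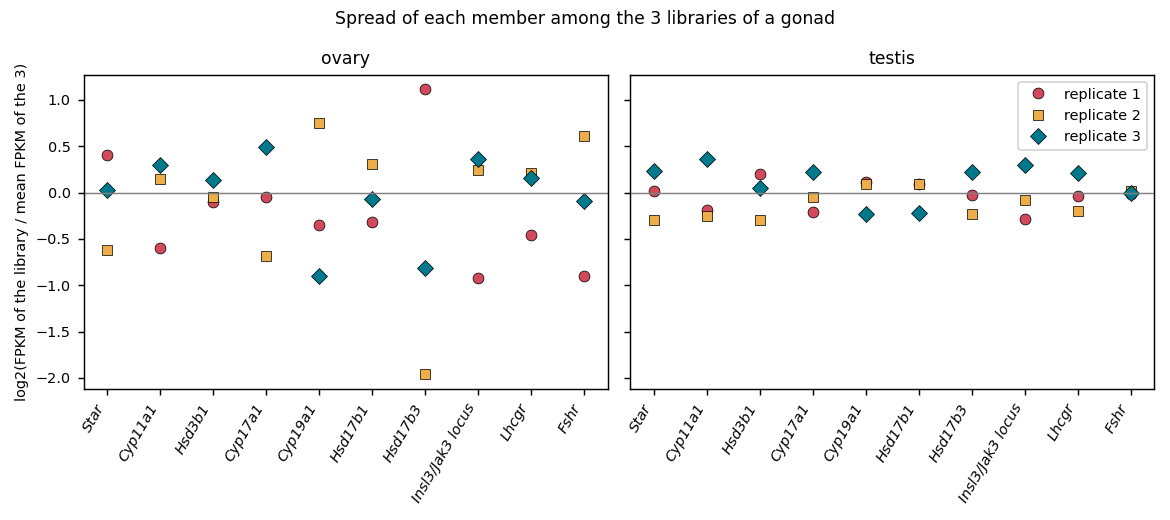
Log2 ratio of each library's FPKM to the mean of the 3 libraries of its gonad, for each member in ovary (left) and testis (right), with a symbol for each replicate number. *Hsd17b3* ranges 8.47-fold in ovary, against 1.36-fold in testis.

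Outside the gonads, the members were low or not detected. Each of the 10 was higher in ovary than in the mean of the 8 somatic groups, where 24.0% of all loci were higher and 19.0% lower, and each was also higher in testis, where 40.7% of loci were higher and 26.6% lower (edgeR). The 2 comparisons share the same somatic libraries. Every ovary library lay above every somatic library for 9 of the 10 members, against 11.1% of all loci, and every testis library did so for all 10, against 25.3% of all loci. Log2 differences between 0.89 and 15.54 were fitted for ovary and between 3.46 and 13.37 for testis. Where groups had no count these depend on the prior count of the fit and are no bounds, so the gap between the lowest gonad library and the highest somatic library is given below.

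*Star* had counts in all 23 somatic libraries, 4704 in total. Its mean was 2.42 FPKM in heart, 1.51 in cerebellum, 1.03 in brain and 0.766 in colon, and the ranges of cerebellum and brain did not overlap while those of heart and cerebellum did. The lowest ovary library was 5.57-fold and the lowest testis library 8.44-fold above the highest somatic one. That library was female heart replicate 3, with 993 counts (6.55 FPKM) against 253 and 258 in the other female heart libraries and 121 and 167 in the male ones. The fat list summed to 1052 FPKM in this library, with all 4 genes counted, and to between 0.112 and 3.13 FPKM in the other 4 heart libraries. Of the heart list, female heart replicate 3 had the highest *Myl7* (1989 FPKM, against a heart mean of 428). It also had the lowest *Myh6* (1789 FPKM, against a heart mean of 3875). The adrenal cortex list summed to 3.01 FPKM there, from the corticotropin receptor gene *Mc2r* alone, against at most 0.0313 FPKM. The same library had the highest heart counts of *Cyp11a1* (37), *Hsd3b1* (15) and *Cyp17a1* (6), and the part of the markers in these counts was not tested.

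*Cyp11a1* was counted in all 23 somatic libraries with 410 counts in total, of which 217 were in brain. Its mean was 0.704 FPKM in brain, 0.378 in cerebellum, 0.345 in heart and 0.149 in colon, and the ranges of neighbours in this order overlapped. The gonads held 99.8% of its counts, and the lowest ovary library was 958-fold and the lowest testis library 192-fold above the highest somatic one. *Hsd3b1* had 74 somatic counts in 18 libraries, at most 15 in any, and the lowest ovary and testis libraries were 4073-fold and 327-fold above its highest somatic level, in female colon replicate 3. *Cyp17a1* had 70 somatic counts in 16 libraries. For *Cyp17a1* female colon replicate 1 alone held 20 of them, against 3 and 9 in the other female colon libraries. The lowest testis library was 346-fold above this highest somatic level of *Cyp17a1*, and the lowest ovary library 104-fold. The post-meiotic male germ cell list reached 27.3 FPKM in colon, against at most 1.16 FPKM in brain, 1.06 in cerebellum and 0.478 in heart. Its part in the colon counts was not tested.

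*Cyp19a1* outside the gonads was detected in brain alone. All 6 brain libraries had between 2 and 9 counts, 29 in total, a mean of 0.0370 FPKM ± 0.0169 (SD, n = 6), and the brain range did not overlap the testis range above it. None of the 17 libraries of cerebellum, heart and colon had a count, and 3 counts over all libraries of a tissue would correspond to 0.00460 FPKM in cerebellum, 0.00584 in heart and 0.00701 in colon, all below the brain mean. These limits cover counting error only. The lowest ovary library was 35.4-fold and the lowest testis library 12.7-fold above the highest brain library.

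*Hsd17b1* had 47 somatic counts in 17 libraries, and at most 10 in any, in female cerebellum replicate 1. The lowest testis library was 1.57-fold above that library, while the lowest ovary library was 123-fold above it. *Hsd17b3* had 5 somatic counts in 3 libraries of colon and heart, none of which exceeded 2. Against the level of 3 counts in the shallowest somatic library, the lowest testis value was at least 258-fold higher and the lowest ovary value at least 3.46-fold higher.

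The *Insl3*/*Jak3* locus was counted in all 23 somatic libraries, with means of 1.89 FPKM in colon, 1.57 in heart, 0.691 in brain and 0.424 in cerebellum. Its ovary range of 1.25 to 3.04 FPKM overlapped those of colon and heart, and the log2 difference from the somatic mean was 0.89 (SE 0.20, adjusted P = 0.00062). In testis it was 8.02 (SE 0.16, adjusted P = 6.9e-24), and the lowest testis library was 73.9-fold above the highest somatic one.

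*Lhcgr* was counted in all 12 libraries of brain and cerebellum. Its mean was 0.679 FPKM ± 0.180 in brain, from 16 to 27 counts, and 0.642 FPKM ± 0.291 in cerebellum, from 5 to 27 counts (SD, n = 6 each), and the ranges overlapped. Colon and heart had 1 count each over 11 libraries. The lowest ovary library was 53.9-fold and the lowest testis library 15.8-fold above the highest somatic one. *Fshr* had 3 somatic counts, all in female brain replicate 3. Against the same level of 3 counts, the lowest ovary value was at least 18.9-fold and the lowest testis value at least 6.46-fold higher. With DESeq2 the adjusted P of *Fshr* was 0.082 in ovary and 0.13 in testis against the somatic mean.

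No member was called for a difference between males and females in brain, cerebellum, heart or colon with edgeR, in 40 tests. All loci called were 0.0368% in brain, 0.0301% in cerebellum, 0.0635% in heart and 0.324% in colon. At an unadjusted P under 0.05 there were 0 members in brain, 0 in cerebellum, 2 in heart (*Star* and *Hsd3b1*) and 2 in colon (*Hsd3b1* and *Cyp17a1*), out of 10 in each tissue. Of all loci, 4.83% passed this unadjusted threshold in brain, 3.06% in cerebellum, 9.65% in heart and 8.85% in colon. With DESeq2 there were 2 members in cerebellum, against 3.76% of all loci. In heart, male minus female was -1.15 for *Star* (SE 0.29, adjusted P = 0.16) and -5.97 for *Hsd3b1* (SE 1.57, adjusted P = 0.18), the latter from 2, 3 and 15 counts in females and none in males. The *Star* value was -0.61 (adjusted P = 0.76) without female heart replicate 3, the library with the high fat list, and its adjusted P was 0.037 and 0.019 without female heart replicates 1 and 2. DESeq2 called *Star* in heart (adjusted P = 0.019) and *Hsd3b1* in colon (adjusted P = 0.046), where it called 0.949% and 1.35% of all loci, and no member in brain or cerebellum.

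*Hsd3b1* in colon was at 5, 6 and 14 counts in females and at 3, 1 and 4 in males (male minus female -1.98, SE 0.57, adjusted P = 0.20). *Cyp17a1* in colon was at 20, 3 and 9 counts in females and at 2, 0 and 3 in males (-3.02, SE 0.94, adjusted P = 0.26). The post-meiotic male germ cell list ranged from 0 to 27.3 FPKM among the colon libraries, against at most 1.16 FPKM in the other somatic libraries. Its part in the colon counts of *Hsd3b1* and *Cyp17a1* was not tested. For the interaction of sex with these 4 tissues, no member was called by edgeR or DESeq2, against 0.0167% of all loci with edgeR and 0.789% with DESeq2, and 2 members had an unadjusted P under 0.05 with edgeR (*Star* and *Cyp17a1*) and 2 with DESeq2, against 6.77% and 10.2% of all loci.

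The genes with the most similar pattern were sought among 18262 protein-coding loci by Pearson's r of log2 CPM over the 29 libraries. These libraries fall into few tissues, so a high r mostly says that 2 genes share the gonads in which they are high. For *Cyp11a1* the nearest was *Nr5a1*, the gene of steroidogenic factor 1 (r = 0.98), which was also among the first 2 for *Hsd3b1* and *Fshr* (r = 0.98 each). *Akr1cl* came first for *Hsd3b1* (r = 0.99), and *Cyp11a1* and *Fshr* were nearest to *Cyp19a1* (r = 0.97 each). *Amhr2*, the receptor gene of anti-Müllerian hormone, came first for *Star* (r = 0.96), ahead of *Olfr330* (r = 0.96). The genes nearest to *Cyp17a1* were *Serpina5* and *Vmn2r12* (r = 0.98 each), and those nearest to *Hsd17b3* were *Serpina3a* and *Mcm7* (r = 0.98 each). For *Lhcgr* they were *Prss35* (r = 0.98) and *Gm5862* (r = 0.96), for *Hsd17b1* *Nlrp4a* (r = 0.96) and *E330017A01Rik* (r = 0.95), and for the *Insl3*/*Jak3* locus *Gm5617* and *Nup98* (r = 0.97 each). *Olfr328* was the second for *Cyp11a1* (r = 0.98) and *Cela3b* the first for *Fshr* (r = 0.99).

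The members were set beside 49 other genes of cholesterol supply, steroid metabolism and gonadal signalling. Of these, 45 had exactly 1 counted locus, and 44 of them were tested. Between ovary and testis, 31 were higher in ovary, 9 were higher in testis and 4 were not called, while 26.5% of all loci were higher in ovary and 37.8% in testis. The median log2 difference was 1.17 against -0.15 for all loci. With library totals alone 33 were higher in ovary and 6 in testis, against 38.5% and 30.4% of all loci. The groups by role are small and follow the TMM fit. All 4 electron donor genes, whose products pass electrons to the steroidogenic P450 enzymes, were higher in ovary, as were 7 of 9 genes of cholesterol supply and 4 of 6 regulators. Of 16 other enzymes of steroid metabolism, 10 were higher in ovary and 3 in testis.

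The genes of this list with the largest differences included 4 higher in ovary. *Akr1c18*, the progesterone-inactivating enzyme, was at 148 ± 66.8 FPKM in ovary (SD, n = 3) and had 1 count over the testis libraries. *Ptgfr*, the receptor gene of the luteolytic prostaglandin, was at 18.0 ± 3.87 FPKM in ovary and had 3 counts over the testis libraries. *Esr2* (estrogen receptor beta) and *Nr5a2* (a relative of *Nr5a1*) were at 17.5 ± 3.0 and 23.3 ± 4.23 FPKM in ovary against 0.0357 ± 0.0230 and 0.0967 ± 0.0483 FPKM in testis.

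In testis, *Hsd3b6*, the relative of *Hsd3b1*, was at 221 ± 58.6 FPKM and in ovary at 0.369 ± 0.119 FPKM, the reverse of *Hsd3b1*. *Sult1e1*, which sulfates estrogens, was at 38.2 ± 8.06 FPKM in testis against 0.0198 in ovary. *Cyp21a1*, a hydroxylase of adrenal steroids, was at 0.859 ± 0.309 FPKM in testis, and *Rxfp2*, the gene of the INSL3 receptor, at 2.73 ± 0.205 FPKM against 0.0936 ± 0.0661 in ovary. These 8 genes were picked for the largest differences among genes called with libraries that did not overlap, so their calls are no separate result. Their adjusted P values were 0.00028 or less (edgeR).

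**Figure D5:**
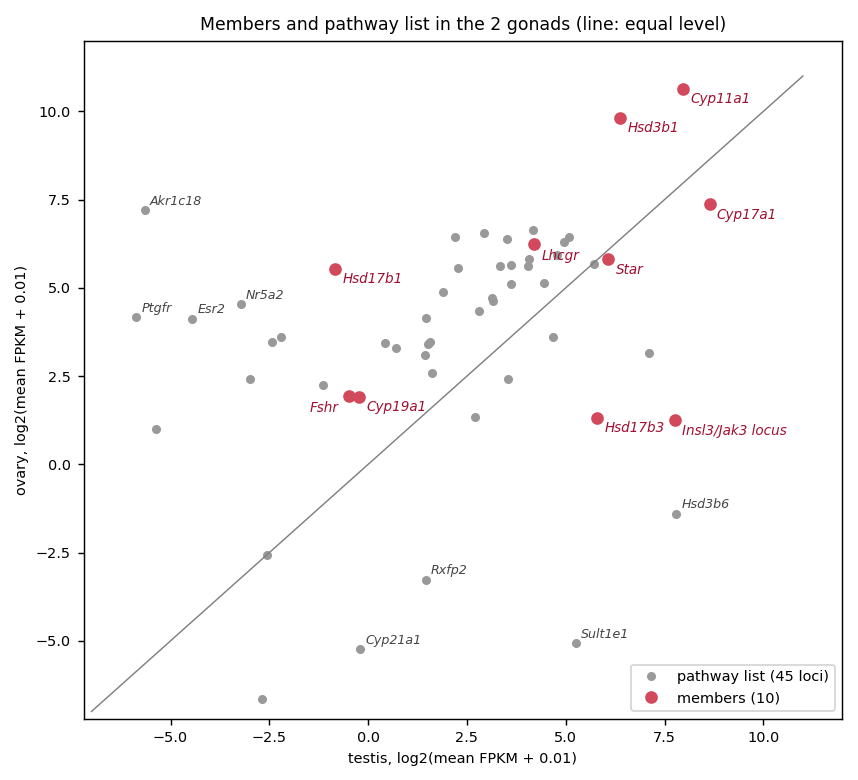
Mean level in ovary (vertical axis) against testis (horizontal axis), both as log2(mean FPKM + 0.01), for the 10 members (red) and 45 genes of the pathway list (grey), with the line of equal level and the 8 named genes of the list labelled. *Hsd3b1* and *Hsd3b6* lie on opposite sides of the line.

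Against the somatic mean, 30 of the 44 genes were higher in ovary and 1 was lower, where 24.0% of all loci were higher and 19.0% lower. The median log2 difference was 3.21 against 0.00 for all loci, and with library totals 37 genes were higher and 0 lower, against 39.1% and 11.5% of all loci. In testis, 23 were higher and 11 lower, where 40.7% of all loci were higher and 26.6% lower, so that the share lower was near that of all loci. The median was 1.07 against 0.12. *Nr5a1* was at 48.9 ± 11.5 FPKM in ovary and 16.4 ± 1.17 FPKM in testis, and at no more than 0.0262 FPKM in any somatic library. *Gata4*, a gonadal and cardiac transcription factor, was at 49.4 ± 6.86 FPKM in ovary and *Nr0b1*, which represses NR5A1, at 2.52 ± 0.117 FPKM in ovary and 6.56 ± 0.758 FPKM in testis. *Npc1*, *Stard3* and *Hsd17b4*, which handle cholesterol or break down steroids in many tissues, were lower in every testis library than in any somatic library, as was *Ptgfr*. These genes were named because they were called and their libraries did not overlap. In testis, *Npc1* was at 2.74 ± 0.535 FPKM, *Stard3* at 2.71 ± 0.0730 FPKM and *Hsd17b4* at 27.3 ± 2.76 FPKM.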

How the data were processed

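The authors deposited 1 table of raw read counts per locus and library, neither normalized nor pooled. The submitters' processing notes list FastQC 0.11.8, MultiQC 0.9, HISAT2 2.0.5, featureCounts 1.6.3 and the mm10 genome. The paper's methods state that Iso-seq and ENSEMBL annotations were combined and that reads with more than a single placement were dropped. The libraries keep strand, and whether counting used it is not given in the sources used here.

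The 29 count columns were matched to samples by tissue, sex and replicate number, and the table held 0 further sample columns. Each of the 28 within-group pairs differed by more than sampling noise (chi-square per gene of 10.1 to 286). The 6 Iso-seq samples entered through the annotation. FPKM was computed from the counts, the library total and the union of a locus's exons. edgeR 4.0.16 (quasi-likelihood test, TMM, low-count filter by group) was run in R 4.3.3 with a mean for each of 10 groups, and loci were called at an adjusted P under 0.05. It was tested on simulated data. DESeq2 1.42.0, other scalings, no filter, a replicate block, the 6 gonad libraries alone and leaving out each library were the alternatives. The members, the pathway list and the marker lists were chosen with earlier results of these data known. All members were named, with the 2 genes nearest in pattern to each member. The 4 pathway genes of largest change in each direction were named among those called with libraries that did not overlap. *Cyp11b1*, *Amh*, *Mc2r*, *Foxl2*, *Inha*, *Sfrp4*, *Crisp1*, *Gdf9*, *Myl7* and *Myh6* were named as markers after their values were seen. Gene models for overlaps were those of GENCODE M21, and promoter sequences were those of RefSeq on GRCm38.p6.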

Additional observations from a re-analysis of the deposited data

How the results depend on the processing

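No member changed direction between ovary and testis, or between either gonad and the somatic mean, under any of 35 alternatives. The differences between ovary and testis that were no longer called are given with the results above, for *Star*, *Hsd17b3*, *Cyp19a1* and *Fshr*, and the cause was not tested. For differences between males and females, DESeq2 called 52 loci in brain, 24 in cerebellum, 284 in heart and 405 in colon, against 11, 9, 19 and 97 with edgeR, among them 1 member in heart and 1 in colon. Without the low-count filter, 30 loci were called in heart. Leaving out each library in turn gave 7 to 285 loci and 0 to 1 members in heart, and 43 to 157 loci in colon. For sex by tissue, edgeR called 5 loci, against 236 with DESeq2, 3 with DESeq2's size factors, 1 with library totals, 12 without the filter and 0 to 14 without a library. The testis share of *Cyp17a1* was 33.9% with the longest transcript, 16.0% with the *Insl3* transcript alone and 32.8% with the GENCODE length of *Hsd3b1*, which also gave *Cyp11a1* 37.4% in ovary, since these lengths change every share.

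The replicate numbers did not pair the libraries. Of 45 pairs of groups, 0 had a correlation over 0.1 for every shared number (range -0.26 to 0.15). With a replicate block, no call of a member changed, the adjusted P of *Fshr* between the gonads was 0.038, and 1 locus was called for sex by tissue. With at most 3 libraries a group and few reads of *Fshr*, *Cyp19a1* and *Hsd17b3* outside their main tissue, small differences of these genes may have been missed. The smallest difference that could be detected was not measured.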
